A study of Mus musculus with 4 samples.

Results

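Complement and microglial genes are described here in the forebrain of mice whose Pdgfra-lineage cells carry an active hedgehog receptor component. The 7 genes, C1qb, C1qc, C4b, Fcrls, P2ry12, Spp1 and Bst2, were taken by name from a deposited table of 5282 genes, and all 7 have a row there. RNA was sequenced from corpus callosum and cortex, dissected together at postnatal day 15, in 2 Pdgfra-creER;SmoM2 samples (SmoM2) and 2 wild type (WT) samples. SmoM2 is a form of Smoothened that signals without ligand, and Pdgfra-creER is a recombinase that tamoxifen activates in Pdgfra-expressing cells, which include oligodendrocyte precursors and fibroblasts. Both groups received tamoxifen from postnatal day 5 to 7. The labels give the WT samples no allele, and they do not say whether each sample was 1 animal.

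The table holds genes that the authors selected at an unadjusted p of at most 0.05, so each row was chosen for its difference between these same 4 samples. Read depth is unknown; the summed level of all rows ran from 469062 to 512833 over the samples. A level here is the deposited expression value; no source used here gives its unit, and it is read as scaled for gene length, which was not tested and on which every comparison of levels between genes rests. The words "rose" or "fell" mark genes whose adjusted p there was 0.05 or less (the call used throughout). Of all listed genes 37.3% were called by that rule, 21.3% as higher and 16.0% as lower in SmoM2. Markers of mature oligodendrocytes and neurons with a row were present in all 4 samples. For mature oligodendrocytes 12 of 12 genes were listed, and Snap25, a neuronal gene, read between 1277 and 1794. All 7 listed choroid plexus genes were lower in both SmoM2 samples than in both WT samples, and 5 fell. Their sum was lowest in SmoM2 replicate 1, at 152.6, against 726.1 in SmoM2 replicate 2, and 1368 and 1402 in WT. Ttr alone read 71.24 and 618.04 in SmoM2 against 1202.66 and 1162.48 in WT.

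Microglia are the resident macrophages of the brain. They make most of the brain's C1q, the protein that starts the classical complement pathway: C1q binds a target, C4 and C2 are then cleaved, and the resulting fragments lead to C3 and to uptake by phagocytes. In developing brain this pathway is known for marking synapses that microglia remove. Resting microglia carry P2ry12, an ADP receptor, and Fcrls, whereas Spp1, which encodes osteopontin, marks microglia of early white matter and is also made by other cells. C4b and the interferon-induced Bst2 are not restricted to microglia.

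Promoter sequences are shown because 5 of the members share a short motif of PU.1, the transcription factor that macrophages and microglia depend on, and Bst2 carries an interferon motif. RefSeq promoters of GRCm38.p6 were matched by symbol for 6 of the 7 members; C4b was not matched. The windows are 80 bases upstream of the annotated start, 5′ to 3′ on the gene's strand, with the motif in capitals. In C1qb and C1qc the motif stands on the opposite strand.

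C1qb, chr4:136886211-136886290, minus strand: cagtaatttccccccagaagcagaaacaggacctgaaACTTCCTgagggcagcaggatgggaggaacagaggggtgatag
C1qc, chr4:136893067-136893146, minus strand: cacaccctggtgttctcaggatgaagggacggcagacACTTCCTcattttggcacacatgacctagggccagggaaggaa
Spp1, chr5:104434962-104435041, plus strand: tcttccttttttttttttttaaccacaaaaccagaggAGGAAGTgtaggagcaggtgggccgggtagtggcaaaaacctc
Bst2, chr8:71537555-71537634, minus strand: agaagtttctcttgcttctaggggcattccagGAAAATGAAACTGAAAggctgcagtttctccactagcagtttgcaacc

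The PU.1 core AGGAAGT, searched on both strands in the 250 bases before each start, occurs in C1qb, C1qc, Fcrls, P2ry12 and Spp1. Of 32851 promoter windows of that length in the same table, 7.69% hold it. The longer form GAGGAAGT, of which the core is a part, occurs in C1qc and Spp1 and in 2.44% of windows. The interferon response motif, GAAA repeated after any 2 bases, occurs at 2 overlapping positions in Bst2, 115 to 130 bases before its start, once in Spp1 on the opposite strand, and in 2.98% of windows. The Fcrls match lies in an annotated exon of Fcrls and the P2ry12 match in an exon of the neighbour Med12l. The motifs were written down after these sequences had been read, so the matches are a description and not evidence of binding.

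By the authors' table, 5 of the 7 members rose in SmoM2, 1 fell and 1 did not pass. The shares over all listed genes were 21.3% called higher and 16.0% called lower. C1qb, C1qc, C4b, Fcrls and Spp1 rose and P2ry12 fell, with Bst2 higher but not past the threshold. In the authors' deposited table their log2 fold changes had a median of 0.55, beside 0.23 for all listed genes. Both SmoM2 levels lay above both WT levels for 6 members; P2ry12 overlapped. Among all listed genes 49.5% lay apart in that way with SmoM2 higher and 35.2% with SmoM2 lower, so the separation alone sets no member off. The members' fold changes were small to moderate: Spp1 alone had a log2 fold change above 1. In bulk tissue a change in the number of cells of a type and a change in RNA per cell cannot be told apart.

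**Figure D1:**
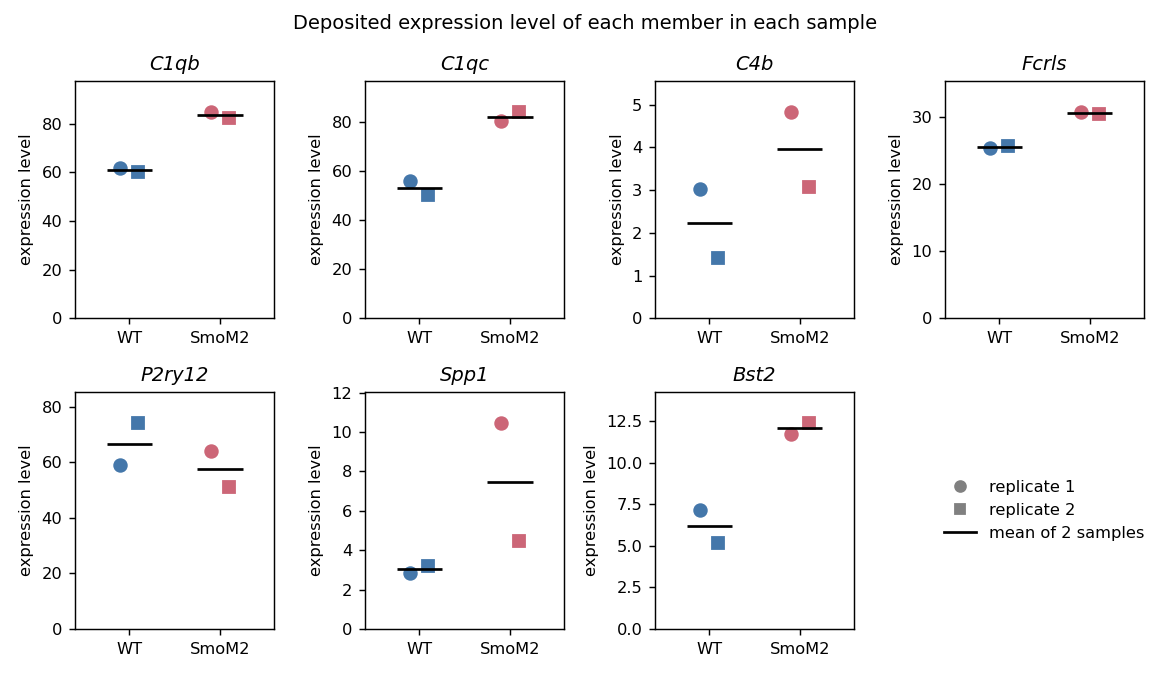
Deposited expression level (vertical axis, deposited unit, linear, from 0) of each of the 7 genes in the 2 WT and 2 SmoM2 samples, with circles for replicate 1, squares for replicate 2 and bars for group means. The 2 SmoM2 samples lie above both WT samples for every gene except P2ry12, and P2ry12 has the widest spread in absolute level within each group. As a ratio between replicates the spread is widest for Spp1 in SmoM2 (2.34) and for C4b in WT (2.13).

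The members' levels spanned a wide range, and their order holds only if levels are scaled for gene length. In WT the order was P2ry12, C1qb, C1qc, Fcrls, Bst2, Spp1 and C4b, from a mean of 66.6 for P2ry12 to 2.23 for C4b. P2ry12 and C1qb overlapped there, as did Spp1 and C4b, and the other neighbours did not. In SmoM2 the order was C1qb, C1qc, P2ry12, Fcrls, Bst2, Spp1 and C4b, with C1qb and C1qc overlapping and Spp1 and C4b overlapping. C1qb stood at the 81.4th percentile of mean level among listed genes and C4b at the 18.0th.

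C1qb and C1qc encode the B and C chains of C1q, which assembles from equal numbers of A, B and C chains. C1qb read 84.87 and 82.59 in SmoM2 against 61.65 and 60.14 in WT. C1qc read 80.15 and 84.00 in SmoM2 against 56.01 and 50.29 in WT. For both genes the gap between groups was several times the gap between samples of a group. The mean level of C1qb was 83.7 ± 1.61 in SmoM2 against 60.9 ± 1.07 in WT (here and below SD, n = 2 per group), a ratio of 1.38. For C1qc the means were 82.1 ± 2.72 against 53.2 ± 4.05, a ratio of 1.54. The authors' deposited table lists C1qb at a log2 fold change of 0.39 (adjusted p 0.0438) and C1qc at 0.55 (adjusted p 0.000417). C1qb passed close to the threshold.

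C1qa, the gene of the A chain, is not among the 7 but has a row. It read 96.89 and 78.91 in SmoM2 against 68.83 and 63.89 in WT, without overlap. The authors' deposited table lists it at a log2 fold change of 0.33 (adjusted p 0.121), which did not pass. The 3 genes lie next to each other on chromosome 4 of GRCm38, all on the minus strand, within 18675 bases. C1qb (ENSMUSG00000036905) spans 136880129 to 136886187 and C1qc (ENSMUSG00000036896) 136889804 to 136893065, each with 3 exons in its longest transcript. If levels are scaled for length, they can be compared between these genes: the level of C1qb divided by that of C1qc was 1.06 and 0.98 in SmoM2 and 1.10 and 1.20 in WT.

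C4b encodes complement C4, the step that follows C1q. It was the lowest of the members, at 4.83 and 3.08 in SmoM2 and 3.03 and 1.42 in WT. The lower SmoM2 sample lay just above the higher WT sample, and the WT samples differed from each other 2.13-fold. Its mean was 3.96 ± 1.24 in SmoM2 against 2.23 ± 1.14 in WT, a ratio of 1.78. The authors' deposited table calls it higher, at a log2 fold change of 0.89 (adjusted p 0.00111). Without WT replicate 2 the log2 difference of C4b, computed with limma on log2(level + 1), went from 0.64 ± 0.32 (SE) to 0.28, without SmoM2 replicate 1 to 0.39, and without WT replicate 1 to 1.01. C4b (ENSMUSG00000073418; chromosome 17, 34728380 to 34743882, minus strand) has a close paralog, C4a: 35.2% of the 5330 stretches of 50 bases in the longest C4b transcript occur identically in C4a. The sources used here do not give how reads were split between these genes, so the C4b level is uncertain.

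Other components and regulators of complement with a row were mostly higher. Of 23 components, 8 had a row including C1qb, C1qc and C4b, and all 8 were higher and 4 were called, 3 of them members, beside 21.3% of listed genes called higher. Fcna, which encodes the lectin ficolin A, rose from 0.79 and 0.30 in WT to 2.39 and 1.96 in SmoM2. C2, Cfp and Cfb, the genes of complement C2, properdin and factor B, were at low levels of at most 5.05 and did not pass. C3 had no row and was not analysed here, and neither were C1ra, C1s1 and the genes of the terminal components. Of 29 receptors and regulators, 8 had a row, of which 5 rose and 2 fell. Serping1, the C1 inhibitor gene, read 8.71 and 6.58 in SmoM2 against 3.49 and 2.83 in WT. Vtn, the vitronectin gene, read 102.99 and 86.42 against 55.86 and 36.27. Cd59a, which encodes a surface protein that blocks the membrane attack complex, fell, at 2.45 and 3.41 against 4.99 and 5.67. Itgam, C3ar1 and C5ar1, receptors of microglia for complement fragments, had no row.

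C1q-domain genes outside complement gave a comparison by protein family. Of 20 such genes 10 had a row, 5 rose and Cbln2 fell. Of all listed genes 21.3% were called higher and 16.0% lower. C1qtnf2 and Emilin1, which encode a secreted C1q/TNF-related protein and a matrix glycoprotein, were low in WT, at 2.51 and 1.62 and at 1.75 and 0.95, and read 5.96 and 5.75 and 4.31 and 4.96 in SmoM2. Mmrn2 was called higher as well, although its groups overlapped.

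P2ry12 encodes the Gi-coupled ADP receptor by which resting microglia sense nucleotides. It read 64.14 and 51.27 in SmoM2 against 59.00 and 74.29 in WT, and the groups overlapped. Its mean was 57.7 ± 9.10 in SmoM2 against 66.6 ± 10.8 in WT, a difference smaller than either SD. The authors' deposited table calls P2ry12 lower, at a log2 fold change of -0.48 (adjusted p 0.00187). The ratio of the mean levels corresponds to a log2 value of -0.21, which is 0.27 nearer to 0 than the authors' value. Over the 4818 listed genes that averaged 1 or more and were above 0 in both groups, the authors' value minus that of the levels had a median of -0.08, and the middle 90% ran from -0.27 to 0.10. P2ry12 lies at the lower edge of that range. With limma the log2 difference of P2ry12 was -0.20 ± 0.16 (SE), and leaving out a library gave -0.05 (SmoM2 replicate 2), -0.04 (WT replicate 2), -0.36 (SmoM2 replicate 1) and -0.37 (WT replicate 1).

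P2ry12 (ENSMUSG00000036353; chromosome 3, 59216272 to 59262871, minus strand) lies within Med12l, which is on the plus strand, and 9 of its 2546 exonic bases are exonic in Med12l. Med12l had no row, and the sources used here do not say whether counting used strand. Of 22 purinergic receptor and ectonucleotidase genes 6 had a row. P2ry6, a receptor of microglia for UDP, read 4.34 and 4.07 in SmoM2 against 2.05 and 2.72 in WT, and P2ry1 and Entpd2 were also higher, none of the 3 past the threshold. Adora2a, an adenosine receptor gene, was called higher with overlapping groups, at 17.98 and 51.62 against 28.09 and 12.92. P2ry13, a close relative of P2ry12 in microglia, had no row.

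Fcrls encodes an Fc receptor-like protein of mouse microglia with a scavenger receptor domain. Its samples were the most alike of the 7 genes, at 30.69 and 30.44 in SmoM2 and 25.28 and 25.61 in WT. The mean level of Fcrls was 30.6 ± 0.177 in SmoM2 against 25.4 ± 0.233 in WT, a ratio of 1.20. The authors' deposited table lists it at a log2 fold change of 0.39 (adjusted p 0.0456), close to the threshold. Its limma log2 difference of 0.26 ± 0.10 (SE) was equal within 0.004 to the median of 0.25 over all 4845 genes fitted. Fcrls (ENSMUSG00000015852) lies on chromosome 3, 87250758 to 87263738, on the minus strand, and shared no 50-base stretch with a transcript of another gene. Of 13 Fc receptor genes only Fcrls and Fcgr2b, an inhibitory receptor gene, had a row; Fcgr2b read 5.02 and 5.63 in SmoM2 against 3.27 and 3.20 in WT and did not pass (adjusted p 0.154).

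The other listed genes of resting microglia were higher in SmoM2, as C1qb and Fcrls were. Of 25 genes of resting microglia 9 had a row, 4 of them members. Of these 9, 8 were higher, 5 rose and P2ry12 was the one that fell. The 5 include the members C1qb, C1qc and Fcrls, so only Olfml3 and Laptm5 rose among the genes outside the members. For comparison, 2808 of all 5282 listed genes were higher, and 21.3% were called higher. Olfml3, a secreted protein gene of microglia, rose from 4.93 and 4.55 in WT to 8.53 and 7.97 in SmoM2. Laptm5, a lysosomal membrane protein gene of leukocytes, read 33.83 and 35.97 against 30.61 and 24.88 and rose. Csf1r, the receptor that microglia need to survive, read 71.03 and 66.10 against 41.13 and 46.04, but did not pass. Its log2 fold change is 0.23 by the authors' deposited table and 0.65 from the levels. Tmem119 read 23.05 and 25.11 against 20.70 and 15.49 and did not pass. Cx3cr1, Trem2, Tyrobp and Aif1 had no row, so most of the list was not analysed here.

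**Figure D2:**
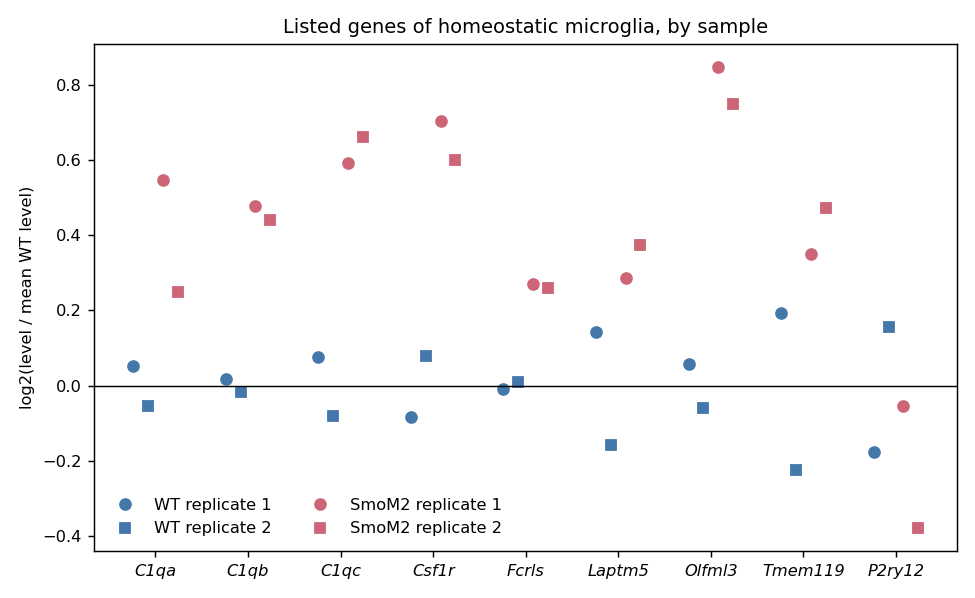
Log2 of each level over the mean WT level (vertical axis) for the 9 listed genes of resting microglia, with blue for WT, red for SmoM2, circles for replicate 1 and squares for replicate 2. Both SmoM2 samples lie above both WT samples for 8 genes, while the groups of P2ry12 overlap.

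Relative to other microglial genes, P2ry12 was lower in both SmoM2 samples. Its level divided by that of C1qb was 0.76 and 0.62 in SmoM2 and 0.96 and 1.24 in WT, and divided by that of Csf1r it was 0.90 and 0.78 against 1.43 and 1.61. Neither ratio overlapped between groups. Ratios to Csf1r were lower in SmoM2 for other genes as well. Fcrls divided by Csf1r was 0.432 and 0.461 in SmoM2 against 0.615 and 0.556 in WT. C1qb divided by Csf1r was 1.195 and 1.249 against 1.499 and 1.306, and C1qc divided by Csf1r overlapped. By these levels a low ratio to Csf1r was thus not particular to P2ry12. That holds on the levels only, where the log2 fold change of Csf1r was 0.65. The authors' deposited table lists Csf1r at 0.23, below C1qb and Fcrls at 0.39 each, and P2ry12 at -0.48. The level of Fcrls divided by that of C1qb was 0.36 and 0.37 in SmoM2 and 0.41 and 0.43 in WT. These ratios were formed after the levels were seen, and 2 samples against 2 cannot go below p = 0.333 in an exact two-sided permutation test. Of 18 regulators and survival factors of microglia 8 had a row, of which 6 were higher, but 1 rose (12.5%, beside 21.3% of all listed genes) and 1 fell. Tgfb1, a cytokine that microglia depend on, rose from 6.97 and 5.15 in WT to 13.03 and 10.26 in SmoM2, and Mef2c fell with overlapping groups, though neurons express it too. Spi1, the PU.1 gene, read 9.94 and 7.56 against 6.08 and 4.42 and did not pass (adjusted p 0.145, the authors' deposited table).

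**Figure D3:**
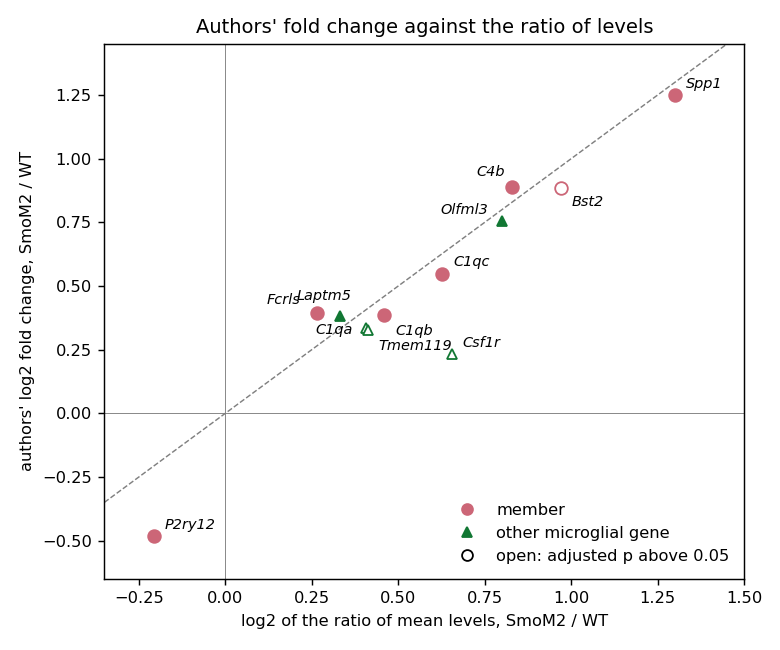
Log2 fold change in the authors' deposited table (vertical axis) against log2 of the ratio of mean levels (horizontal axis) for the 7 members (circles) and 5 other microglial genes (triangles), filled where the adjusted p was at most 0.05; the dashed line marks equal values. P2ry12 and Csf1r lie farthest below the line, at -0.48 against -0.21 and at 0.23 against 0.65.

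Spp1 encodes osteopontin, a secreted phosphoprotein that binds integrins and CD44. It read 10.48 and 4.47 in SmoM2 against 2.86 and 3.21 in WT. Both SmoM2 samples were higher, but they differed from each other 2.34-fold while the WT samples differed 1.12-fold. Its mean was 7.48 ± 4.25 in SmoM2 against 3.04 ± 0.248 in WT, a ratio of 2.46 and the highest of the 7. The authors' deposited table lists Spp1 at a log2 fold change of 1.25 (adjusted p 0.000863). The limma log2 difference of Spp1 was 0.98 ± 0.35 (SE), 0.44 without SmoM2 replicate 1 and 1.51 without SmoM2 replicate 2.

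Spp1 (ENSMUSG00000029304) lies on chromosome 5, 104435118 to 104441050, on the plus strand, and 9.1% of its 50-base stretches are also in Gm42793, an unverified transcript that overlaps it. Genes of reactive or white matter microglia gave little to set beside Spp1, since 5 of 26 had a row, Spp1 itself included. Of these 5, 4 were higher and 1 was lower. The lower one, Ccl6, read 1.00 and 0.90 in SmoM2 against 2.06 and 2.57 in WT and did not pass. Ctsz read 35.50 and 33.17 in SmoM2 against 27.66 and 23.73 in WT and did not pass. Clec7a, a pattern receptor gene, read 1.20 and 0.21 in SmoM2 against 0.03 and 0.41 in WT, without passing. Ftl1, the ferritin light chain gene, which all cells use, rose from 1138.00 and 961.55 to 1460.50 and 1416.04. Gpnmb, Itgax, Apoe, Lpl and Igf1 had no row. Of the 15 genes of osteopontin receptors and related proteins 3 had a row, Spp1 itself included. Itgav, the gene of the integrin alpha V chain, fell from 24.05 and 23.14 in WT to 16.30 and 13.55 in SmoM2. Itgb5 went the other way, at 30.13 and 27.53 in SmoM2 against 23.57 and 20.72 in WT, and did not pass. Cd44 had no row.

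Bst2 encodes tetherin, a membrane protein that holds budding virus particles at the cell surface and is induced by interferon. It read 11.73 and 12.40 in SmoM2 against 7.14 and 5.18 in WT, and the groups stood well apart. Its mean was 12.1 ± 0.474 in SmoM2 against 6.16 ± 1.39 in WT, a ratio of 1.96. The authors' deposited table lists it at a log2 fold change of 0.89, as for C4b, but with an adjusted p (0.107) that did not pass. With each library left out the limma log2 difference of Bst2 stayed between 0.68 and 1.08. Bst2 (ENSMUSG00000046718) lies on chromosome 8, 71534255 to 71537456, on the minus strand, with 5 exons in its longest transcript of 792 bases.

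Interferon-induced genes with a row were mostly higher in SmoM2, over a wide range of levels. Among 38 such genes 13 had a row, including Bst2. Of these 12 were higher and 3 rose, or 23.1%, which is near the 21.3% of all listed genes. Ifitm3, an antiviral membrane protein gene, rose from 20.86 and 16.45 in WT to 33.98 and 33.65 in SmoM2. Ifitm1 read 12.90 and 9.82 against 5.71 and 3.56, and Lgals9, a galectin gene, 16.67 and 18.24 against 12.42 and 7.61; both rose. Irf7, Oasl2, Usp18 and Oas1a, which respond strongly to interferon, were at levels of at most 2.99 and did not pass. B2m, the light chain gene of MHC class I, had the highest level of the list, from 143.18 to 180.91, with a log2 fold change of -0.26, and did not pass. Isg15, Ifit1 and Ifit3 had no row.

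**Figure D4:**
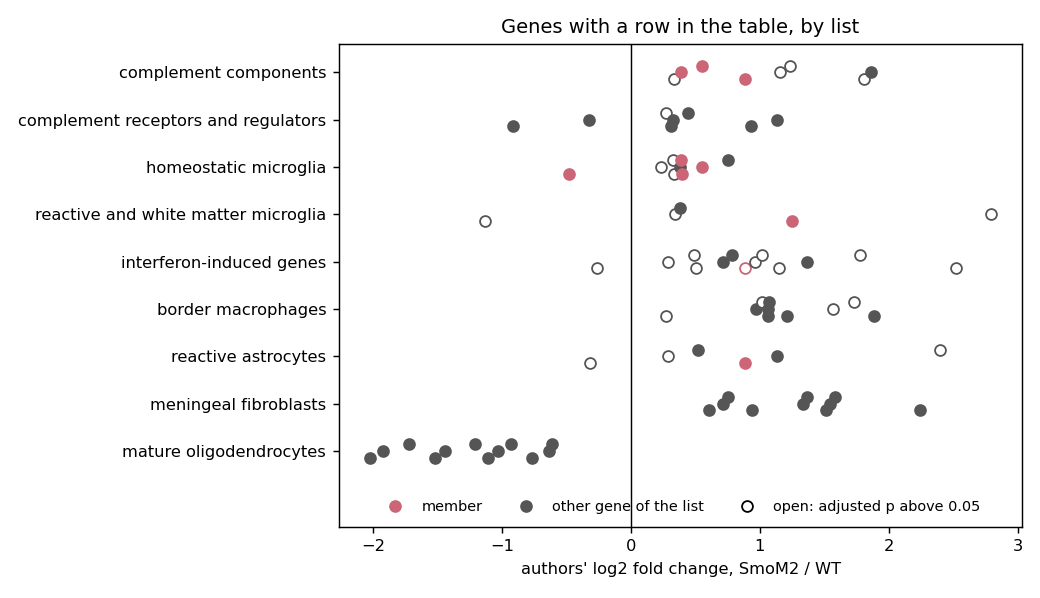
Log2 fold change in the authors' deposited table (horizontal axis) for every gene with a row in 9 gene lists, red for members and grey for other genes, filled where the adjusted p was at most 0.05. Listed complement components, border macrophage genes and meningeal fibroblast genes all lie to the right of 0 and mature oligodendrocyte genes to the left.

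Markers of other cells that can express these genes were higher in SmoM2 for some cell types and mixed for others. Genes of border macrophages, which live in the meninges and around vessels, had 10 of 13 members with a row. All 10 were higher and 6 rose, or 60.0%, beside 21.3% of all listed genes, and none was listed at 0 in any sample. Their levels summed to 52.7 and 43.9 in SmoM2 and 25.1 and 21.1 in WT. Cbr2 read 7.02 and 3.82 in SmoM2 against 2.35 and 0.40 in WT, Lyve1 1.61 and 2.59 against 0.82 and 0.40, and F13a1 1.93 and 1.65 against 0.99 and 0.61. By the authors' deposited table the median log2 fold changes were 1.07 for border macrophage genes and 0.38 for the resting microglia list. The difference between these lists was not tested.

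Fibroblast genes of the meninges had 10 of 12 members with a row, and all 10 rose, with none at 0. This count and those below stand beside 21.3% of all listed genes called higher and 16.0% called lower. They summed to 1892 and 1942 in SmoM2 and 1052 and 424.6 in WT, most of it Ptgds. Between the SmoM2 samples the list was mixed: Col1a1 and Col3a1 read 14.36 and 14.49 in replicate 1, where Spp1 and C4b were highest too, against 7.42 and 6.97 in replicate 2, while Dcn read 23.63 and 38.92. Pericyte and smooth muscle genes had 5 of 9 with a row, 2 of which rose, and summed to 38.4 and 32.1 against 21.4 and 24.6. Of 21 genes of reactive astrocytes, which also make C4b, 6 had a row and 3 rose, namely C4b itself, Serping1 and Vim, the last at 77.01 and 45.17 against 41.21 and 32.85. Of 11 other astrocyte genes 6 had a row, 2 rose and 2 fell, with a sum of 1336 and 1229 in SmoM2 against 1464 and 1332 in WT. Endothelial genes had 6 of 10 with a row, 3 of which rose and 2 fell, and summed to 270.5 and 191.2 against 260.7 and 219.8. The part of these cells in the levels of Spp1, C4b, Bst2 and the C1q genes was not tested.

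Blood genes were lower in SmoM2, and genes of white blood cells were nearly all without a row. Of 10 monocyte and neutrophil genes S100a9 alone had a row; it fell, listed at 0 in both SmoM2 samples and at 5.13 and 1.20 in WT. Of 12 lymphocyte genes Ms4a1 alone had a row, listed at 0 in both SmoM2 samples and in WT replicate 1, and it did not pass. Blood genes with a row, 6 of 7, all fell, and summed to 65.6 and 120.5 in SmoM2 and 662.0 and 450.2 in WT. Mature oligodendrocyte genes, the cells of the study's subject, all fell, 12 of 12, summing to 3046 and 3435 against 6355 and 5972. Of all listed genes 16.0% were called lower.

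The members fell into a few patterns over the 4 samples. The distance between centred log2(level + 1) profiles was lowest for C1qb with C1qc, at 0.200, and C1qb with Fcrls, at 0.202, and highest for P2ry12 with Spp1, at 1.30. Bst2 was nearest to C1qc, at 0.314, and C4b to Bst2, at 0.536. Among up to 3805 genes with a usual symbol and a mean level of at least 5, those nearest to C1qb were Abhd17a and Ptms, and those nearest to C1qc were Vat1 and Mrps24. Nearest to P2ry12 were Cetn3 and Prps2, to Fcrls Ddx49 and Calm3, and to Bst2 Spsb4 and Anxa2. Spp1 and C4b had less close matches, with Fbln5 at 0.189 and P3h3 at 0.232 for Spp1, and Gjb2 at 0.105 and Slc6a20a at 0.138 for C4b. Fbln5, an elastic fibre gene, read 12.58 and 5.89 in SmoM2 against 3.22 and 4.46 in WT. With 4 samples in 2 groups many genes share such a profile, and the distances are a description.

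A recalculation from the levels with limma, adjusted over the 57010 tests that the authors' adjusted p-values imply, called none of the 7 members and 0.124% of the 4845 genes fitted. At an unadjusted p below 0.05 it gave 5 members, C1qb, C1qc, Fcrls, Spp1 and Bst2, with p from 0.000784 for C1qc to 0.0479 for Fcrls. The share of all fitted genes below that cut is not given here. Each row was already chosen for its difference between these same samples, so the count sets no member off. C4b and P2ry12 had unadjusted limma p-values of 0.0923 and 0.244. The calls of the members rest on the authors' test. The limma log2 differences exceeded the median of the genes fitted by 0.20 for C1qb, 0.37 for C1qc, 0.39 for C4b, 0.63 for Bst2 and 0.72 for Spp1, while P2ry12 lay 0.46 below it.

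**Figure D5:**
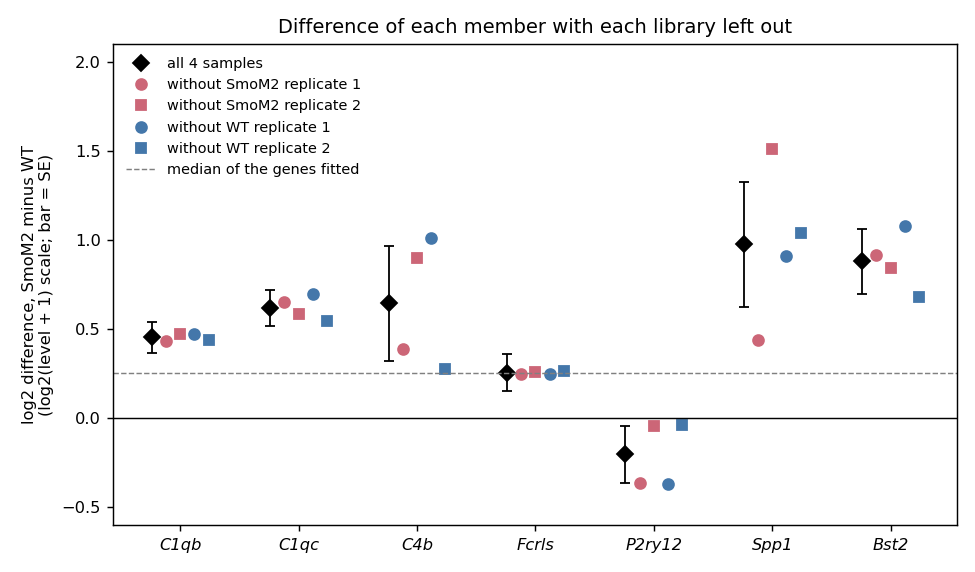
Log2 difference of each member, SmoM2 minus WT, on the log2(level + 1) scale (vertical axis) with all 4 samples (black, bar for the SE) and with each library left out (colours). C1qb, C1qc and Fcrls stay in place, Spp1 ranges from 0.44 to 1.51, C4b from 0.28 to 1.01 and P2ry12 from -0.37 to -0.04.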

How the data were processed

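RNA from 2 SmoM2 and 2 WT samples was made into TruSeq libraries from 1 ug of total RNA, per the labels' protocols. Per the submitters' processing notes, RSEM, DESeq2 and GRCm38.p6 were used; their versions and roles are not stated there. The authors' deposited table gives an expression signal per sample with 2 decimals, called the level here; no source says if it is TPM or FPKM. It also gives the authors' fold change as a ratio, its log2 value, and a p-value and adjusted p-value. The highest p-value in the deposited table is 0.049997. Columns were tied to samples by the pairing in the series text.

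Calls use the deposited adjusted p with a threshold of 0.05. limma 3.58.1 in R 4.3.3, with a mean-variance trend, was run on log2(level + 1) for the 4845 listed genes averaging 1 or more, with Benjamini-Hochberg adjustment over 57010 tests. The log2(level + 1) scale understates the change of low genes. The fit was tested on simulated data with the same spread for every gene and adjustment over the genes fitted. That test did not cover the adjustment over 57010 tests. Nothing says that samples were separate animals, so p-values measure only the spread between these samples, which may be technical. Coordinates and overlaps come from GENCODE M21 (GRCm38). The members, lists and tests were chosen with earlier results of these data known. Named genes were the members and up to 3 called genes of each list by size of fold change with a mean level of at least 1, or else the listed gene of highest level; other list genes in the text were chosen after their values were seen. Alternatives were pseudocounts, filters, scalings, left-out libraries and a replicate block. Some named genes are left out for space.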

Additional observations from a re-analysis of the deposited data

How the results depend on the processing

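With limma, none of the 7 members passed an adjusted p of 0.05 in the main analysis or in any of the 11 alternatives, and all 76 member values kept their direction. The median log2 difference of the members was 0.62; it was 0.43 with a pseudocount of 5, 0.54 with a minimum mean level of 5 (which leaves out C4b), 0.46 with quantile normalization, 0.52 with equal medians, and 0.43 to 0.70 with a library left out. Leaving out a library leaves 1 sample in a group, assumed to vary like the other group. Quantile normalization moved the median of all genes fitted from 0.25 to 0.13; relative to it, Fcrls went from 0.004 to 0.023, and with equal medians to -0.001. With the replicate number as a block the median was again 0.62 and no member passed. Samples with the same number share only that number: their deviations from the group means had a correlation of -0.093 over 4845 genes. Depth is unknown, so no counting error could be given for low genes such as C4b and Spp1.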
